A study of Homo sapiens with 18 samples.

Results

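The proteasome genes were the protein-coding genes whose symbol is PSM followed by A, B, C, D, E, F or G and a number. They were 48 of the 58302 genes in the deposited count table, and each of them was found there by its Ensembl identifier. Their roles divide them into 8 alpha ring subunits, 7 standard beta ring subunits, 4 tissue-specific or inducible beta subunits, 6 cap ATPases, 11 other cap subunits, 7 assembly chaperones, 4 activators and 1 inhibitor. 2 further protein-coding genes share only the start of such a symbol, PSMC3IP and PSME3IP1. They encode no subunit and were left out.

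The proteasome is the protease that degrades ubiquitin-tagged proteins in the cytosol and nucleus. Alpha and beta rings are stacked into a barrel with its proteolytic sites inside, and a cap of ATPases and non-ATPase subunits recognises, unfolds and threads in the substrate. Interferon can replace the catalytic beta subunits by inducible ones, which changes the peptides offered for antigen presentation. When proteasome activity falls short, the transcription factor NFE2L1 is cleaved by the protease DDI2 and raises transcription of the subunit genes together.

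U87MG is an established human glioblastoma cell line, and Erastin is a small molecule that blocks cystine import through system Xc- and leads to ferroptosis, an iron-dependent cell death. Total RNA was sequenced in 2 libraries of untreated cells under normal growth conditions (control) and 2 libraries of cells given 10 μM Erastin for 72 h. The labels call them biological replicates of 1 line and do not say whether they came from separate days, so p-values measure the spread between these libraries. Levels are given in CPM (a gene's counts divided by the library size in mega-counts, with library sizes scaled by the TMM method), every fold change is Erastin over control on the log2 scale with its standard error (SE), and adjusted p-values come from the edgeR quasi-likelihood test over 16751 tested genes with Benjamini-Hochberg adjustment.

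The libraries held 29412656 to 31513519 counts, each with 23519 to 23990 genes detected. Intervals from such counts would cover counting error only. The mitochondrial chromosome took 7.23% to 7.85% of counts in the controls and 2.80% to 3.54% after Erastin, and its part in the results below was not tested. Of the glioma line markers, VIM stood at 1609 to 2547 CPM and CD44 at 1055 to 1406 CPM in the 4 libraries, and GFAP at 1.32 to 2.58 CPM. NES fell by 3.62 on the log2 scale, VIM by 0.60 and CD44 by 0.36. The immune markers CD3E, PTPRC and CD14 stayed below 0.5 CPM, as did the epithelial marker EPCAM, while the endothelial marker PECAM1 fell by 2.34 on the log2 scale, from 4.51 and 6.05 CPM to 1.04 and 1.05 CPM. The part of these marker changes in the results below was not tested.

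The proteasome genes did not move as one group. Of the 43 tested, 11 rose (25.6%, where 23.2% of all tested genes rose), 8 fell (18.6%, against 23.7% of all tested genes) and 24 did not pass the adjusted p threshold of 0.05. In either direction this was 19 of 43, where 47.0% of all tested genes were called. Log2 fold changes ran from -0.71 for PSMG4 to 0.95 for PSMD8, and 39 of the 43 were below 0.5 in size, as were 55.5% of all tested genes. Their median was 0.032, beside -0.0026 over all tested genes. None reached a log2 fold change of 1 in size in edgeR or DESeq2, although 21 had an unadjusted p under 0.05 in edgeR. Among all tested genes, 6.24% rose and 9.34% fell past that fold. Without Erastin replicate 1, where fewer libraries remained for every gene, the median of the proteasome genes was -0.0063. The log2 fold change of PSMD8 reached 1 there and without control replicate 1.

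Summed over the 48 genes, the level was 6073 and 5870 CPM in the controls against 6367 and 6287 CPM after Erastin. Within this sum, PSMD8 alone held 226 and 209.7 CPM in the controls against 398 and 443 CPM after Erastin. As a share of all counts, the 48 genes together held 0.583% to 0.589% in the controls and 0.639% to 0.647% after Erastin. Both Erastin libraries lay above both controls for 18 genes (41.9%, against 36.7% of all tested genes) and below them for 15 (34.9%, against 36.9%), and for 10 the groups overlapped. Fewer cells and less RNA per cell cannot be told apart in bulk RNA.

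**Figure D1:**
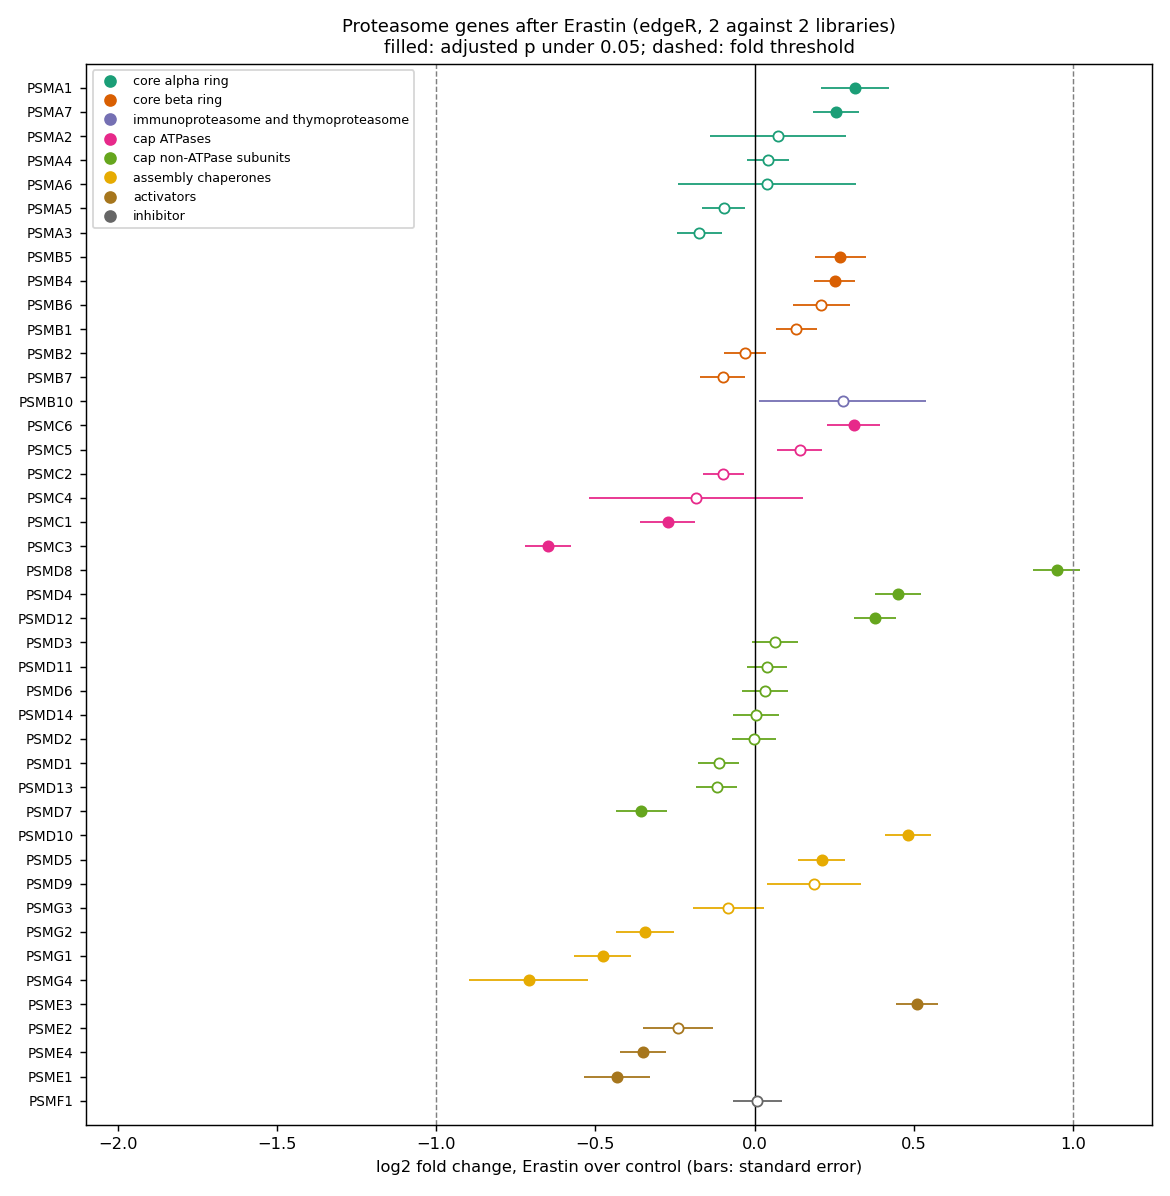
Log2 fold change of each of the 43 tested proteasome genes, Erastin over control, with bars of 1 standard error, coloured by role. Filled points passed an adjusted p of 0.05 (11 to the right of 0, 8 to the left), and no point lies beyond the dashed lines at 1 and -1.

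Sequence near the start sites was compared with these directions, because the antioxidant response element is the site through which NFE2L1 and NFE2L2 act on many genes. Its core was searched as TGACNNNGC, on both strands, in the RefSeq promoter windows of GRCh38.p14, which run from 250 bases before to 50 bases after each start. 42 of the 48 genes were matched by symbol. PSMA7, PSMB1, PSMB6, PSMB7, PSMD4 and PSMG3 were not. The letters were present in a window of 15 of the 42 genes (35.7%) and of 16.1% of 27305 genes in all. The 27305 were not limited to protein-coding or tested genes. Among tested genes with a window, 2221 had the letters and 9144 did not, beside 13 and 24 proteasome genes. 5 windows are shown with the core in capitals, chosen after their values were seen. PSMD12 and PSMD5 are genes that rose, PSMD3 did not pass the test, and PSME1 and PSMG1 fell. They lie at chr17:67366708-67366768 (minus strand), chr9:120843022-120843082 (minus), chr17:39980744-39980804 (plus), chr14:24136082-24136142 (plus) and chr21:39183600-39183660 (minus), and each is written 5′ to 3′ on the strand of its gene.
PSMD12: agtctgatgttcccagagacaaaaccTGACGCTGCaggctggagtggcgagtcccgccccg
PSMD5: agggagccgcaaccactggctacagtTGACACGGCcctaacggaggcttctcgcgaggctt
PSMD3: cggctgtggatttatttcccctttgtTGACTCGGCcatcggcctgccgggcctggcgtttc
PSME1: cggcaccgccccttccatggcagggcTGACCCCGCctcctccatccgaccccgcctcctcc
PSMG1: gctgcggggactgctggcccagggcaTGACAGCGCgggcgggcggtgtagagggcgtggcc

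The core began 165 bases before the start site in PSMD12, 134 in PSMD5, 37 in PSMD3, 86 in PSME1 and 183 in PSMG1. The 13 tested genes with a match had a median log2 fold change of -0.11 (range -0.48 to 0.38), and the 24 without one had a median of 0.020 (range -0.71 to 0.95). Over all tested genes with a window, the medians were 0.046 with the core (2221 genes) and 0.0057 without it (9144 genes). Proteasome genes with the core lay on both sides of 0. PSMD8, the gene with the highest fold change, had no match to TGACNNNGC but 1 match to TGAGNNNGC, a variant of the core. A match is a run of letters and not a shown binding site. The core was 1 of 5 motifs searched. TGAGNNNGC was in 13 of the 42 genes and 21.6% of all genes, CCAAT in 20 genes and 39.7%, TTCNNGAA in 3 genes and 9.46%, and TGATGNAA in 1 gene and 4.46%. The TGACNNNGC comparison was also counted in 2 other ways, over all windows (29.4% of 51 windows of these genes, 13.3% of all) and over the first window of each gene (13 of 42 genes and 13.6%). The motif the text turns on was picked after these shares were seen.

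**Figure D2:**
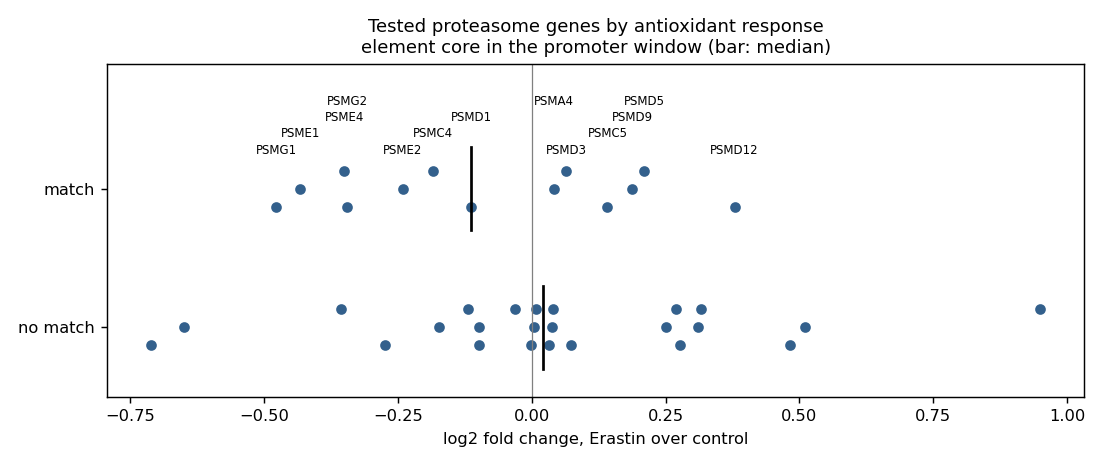
Log2 fold change, Erastin over control, of the tested proteasome genes with a promoter window, split by whether the antioxidant response element core was present (13 genes, named) or absent (24 genes). Vertical bars mark the medians, -0.11 and 0.020, and both sets spread across 0.

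In the alpha ring, whose subunits form the gate of the barrel, 2 of the 7 tested genes rose (28.6%, beside 23.2% of all tested genes) and none fell in edgeR (23.7% of all tested genes did), where 3 had an unadjusted p under 0.05. PSMA1 stood at 24.2 and 22.2 CPM in the controls against 29 and 28.7 CPM after Erastin. PSMA7 stood at 277 and 283 CPM in the controls against 354 and 315 CPM after Erastin. In both genes the groups did not overlap, and both rose (1.24-fold for PSMA1, log2 fold change 0.32 ± 0.11, adjusted p = 0.0298, and 1.19-fold for PSMA7, log2 fold change 0.26 ± 0.071, adjusted p = 0.0115). The PSMA1 call was lost without control replicate 2 (adjusted p = 0.148), Erastin replicate 1 (0.124) or Erastin replicate 2 (0.102) and in DESeq2 (0.0745), and the PSMA7 call without Erastin replicate 1 (0.204).

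The alpha subunits with the lowest fold changes were PSMA3, at 105 and 109.8 CPM in the controls against 98 and 92.6 CPM after Erastin (log2 fold change -0.17 ± 0.070, adjusted p = 0.062), and PSMA5, at 178 and 192 CPM in the controls against 174 and 172 CPM after Erastin (log2 fold change -0.10 ± 0.068, adjusted p = 0.267). Their Erastin libraries lay below the controls, but neither passed the test, and PSMA3 passed it only without control replicate 1 (adjusted p = 0.0337). PSMA4 differed by 0.042, PSMA2 by 0.073 and PSMA6 by 0.039 on the log2 scale. PSMA2 and PSMA6 were counted at only 2.52 to 6.65 CPM. PSMA8, an alpha subunit of the testis, had 0 counts in every library.

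In the beta ring, 2 of the 6 tested genes rose (33.3%, beside 23.2% of all tested genes) and none fell in edgeR (beside 23.7%), where 3 had an unadjusted p under 0.05. PSMB5, which carries the chymotrypsin-like site, stood at 98.7 and 93.1 CPM in the controls against 123 and 108 CPM after Erastin. It rose 1.2-fold (log2 fold change 0.27 ± 0.080, adjusted p = 0.0158), with no overlap between the groups. Without Erastin replicate 1 its log2 fold change was 0.17 and the call was lost (adjusted p = 0.225).

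PSMB6, which carries the caspase-like site, stood at 103 and 89.7 CPM in the controls against 104 and 119 CPM after Erastin. Both Erastin libraries were above both controls, barely so for the nearest pair, and the test was not passed (log2 fold change 0.21 ± 0.089, adjusted p = 0.0722). PSMB6 passed it without control replicate 1 (adjusted p = 0.00106), without Erastin replicate 1 (0.0429) and in 3 of the other settings described in the closing section. PSMB7, which carries the trypsin-like site, stood at 279 and 256 CPM in the controls against 257 and 242 CPM after Erastin. Its groups overlapped and the difference did not pass the test (log2 fold change -0.10 ± 0.070, adjusted p = 0.268), although it did without control replicate 2 (adjusted p = 0.046). The catalytic subunits thus differed by 0.27, 0.21 and -0.10 on the log2 scale, and only PSMB5 passed.

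Of the non-catalytic beta subunits, PSMB4 rose 1.19-fold, from 202 and 209 CPM to 247 and 242 CPM (log2 fold change 0.25 ± 0.064, adjusted p = 0.00682), and lost the call without Erastin replicate 1 (adjusted p = 0.0775). PSMB2 was at 204 and 214 CPM in the controls against 202 and 208 CPM after Erastin, with overlapping groups (log2 fold change -0.031 ± 0.066, adjusted p = 0.732). PSMB1 differed by 0.13 (adjusted p = 0.117). PSMB3 had 0 counts in every library, although every complete proteasome holds this subunit.

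Few or no reads were counted on the inducible subunits. PSMB8, the counterpart of PSMB5, and PSMB9, the counterpart of PSMB6, had 0 counts in all 4 libraries, as did PSMB11, a beta subunit of the thymus. A count of 0 allows up to 3 counted reads per library, which is 0.0955 to 0.10 CPM. This bounds the counted reads and not the transcript level of PSMB8 and PSMB9, whose sequence recurs elsewhere in the reference (described below). PSMB10, the counterpart of PSMB7, was measured at 3.4 and 2.8 CPM in the controls against 4.11 and 3.41 CPM after Erastin. The Erastin libraries were the higher pair, but the lower of them barely exceeded the higher control, and the test was not passed (log2 fold change 0.28 ± 0.26, adjusted p = 0.421).

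Per kilobase of exon, PSMB10 was 1.17% and 1.06% of PSMB7 in the controls against 1.54% and 1.36% after Erastin. These shares use all exon bases, of which part cannot be counted for PSMB10. Over exon bases free of other genes they were 1.80% and 1.62% against 2.37% and 2.08%, and over free MANE Select transcript bases (the representative transcript of a gene) 2.79% and 2.51% against 3.67% and 3.22%, so the size of the share is not settled by these counts. The Erastin shares were the higher pair, by 0.38 on the log2 scale (over all exon bases, -6.49 ± 0.11 in the controls and -6.11 ± 0.13 after Erastin, SD, n = 2 each). The length divides every library alike, so this order and difference cannot change with it. A two-sided exact permutation test gave p = 0.333, the smallest that 2 against 2 libraries allow. The other inducible pairs, PSMB8 to PSMB5 and PSMB9 to PSMB6, gave no ratio.

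The 0 counts of PSMB3, PSMB8 and PSMB9 coincided with a property of the reference. All of their exon sequence, taken as words of 31 bases, recurs on the 261 alternate scaffolds of hg38, and reads that match more than 1 place had not been counted. Of 713 protein-coding genes with at least 90% of their words on such scaffolds, 56.9% had 0 counts in all libraries, against 17.9% of the 18995 other protein-coding genes. Whether the authors' alignment index held these scaffolds is not given in the sources used here, so its part in the 0 counts was not tested. PSMA8 and PSMB11 had 0 counts with 0% of their words on alternate scaffolds.

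A second limit touched 7 genes, for which at least 20% of the MANE Select transcript lay under exons of another gene in the table, where reads go uncounted. The share was 83.2% for PSMC1, 81.4% for PSMA6, 67.0% for PSMA1, 56.1% for PSMB10, 54.5% for PSMA2, 51.6% for PSMD7 and 44.8% for PSMD9. Among them, PSMA1 rose and PSMC1 and PSMD7 fell, so these 3 calls rest on part of the transcript. Of the pathway genes with values below, UBB (49.4%) and ADRM1 (26.7%) are also past this limit. With all 7 proteasome genes left out, 10 of 36 genes rose (27.8%) and 6 fell (16.7%), beside 23.2% and 23.7% of all tested genes. The median log2 fold change of the 36 was 0.0065. The 20% limit was set after these shares were seen. Exon words that recur elsewhere in hg38, outside the alternate scaffolds, can also leave reads uncounted. Their share was highest for PSMC1 (26.3%), PSMD4 (23.8%) and PSMA6 (20.8%). Among other called genes it was 17.2% for PSMC6, 11.6% for PSMD12, 11.3% for PSMD10 and 10.7% for PSMD8. For the remaining called genes it was at most 6.04% (PSMD7). The part of these repeats in the calls was not tested. The 44 pseudogenes with a PSM symbol, which are near copies, held 174 to 211 counts per library in all. Reads that match both a gene and its copy were counted for neither. This total therefore cannot show how many reads the copies cost the genes.

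**Figure D3:**
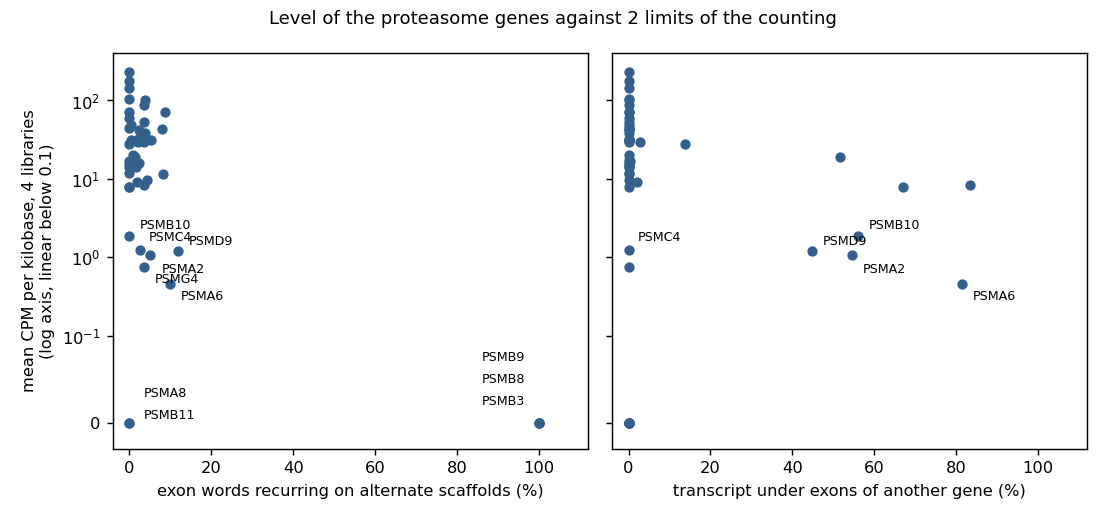
Mean level of each of the 48 proteasome genes over the 4 libraries, in CPM per kilobase of exon on an axis that is logarithmic above 0.1 and linear below. It is plotted against the percent of exon words found on alternate scaffolds (left) and the percent of the MANE Select transcript under exons of another gene (right). PSMB3, PSMB8 and PSMB9 lie at 0 with 100% of words on alternate scaffolds, while PSMC4 is low with both percentages near 0.

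Among the 6 cap ATPases, which form the ring that unfolds the substrate, 1 rose and 2 fell (16.7% and 33.3%, beside 23.2% and 23.7% of all tested genes). PSMC3 stood at 205 and 187 CPM in the controls against 127 and 123 CPM after Erastin. It had the lowest log2 fold change of the cap genes, 0.638 of the control level (log2 fold change -0.65 ± 0.072, adjusted p = 1.67e-05), and both Erastin libraries lay below both controls. PSMC1 stood at 58.7 and 53.9 CPM in the controls against 47.9 and 45.2 CPM after Erastin and also fell (log2 fold change -0.27 ± 0.085, adjusted p = 0.0201), a call that was lost without control replicate 1 (adjusted p = 0.0962), Erastin replicate 1 (0.0508) or Erastin replicate 2 (0.134).

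PSMC6 went the other way, at 60.7 and 69.3 CPM in the controls against 82.3 and 79.1 CPM after Erastin. It rose 1.24-fold (log2 fold change 0.31 ± 0.083, adjusted p = 0.00858), and lost the call without Erastin replicate 1 (adjusted p = 0.069). PSMC5 was at 125 and 116 CPM in the controls against 131 and 135 CPM after Erastin, higher in both Erastin libraries without passing the test (log2 fold change 0.14 ± 0.070, adjusted p = 0.119), which it passed without control replicate 1 (adjusted p = 0.0475). PSMC2 differed by -0.10. PSMC4 had only 66 to 127 counts per library (log2 fold change -0.18 ± 0.34, adjusted p = 0.688), with 2.60% of its words on alternate scaffolds and none of its transcript under another gene. The 6 subunits sit in the ring in equal numbers, and their transcripts moved in both directions.

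The cap's 11 non-ATPase subunits held 3 genes that rose and 1 that fell (27.3% and 9.09%, beside 23.2% and 23.7% of all tested genes). PSMD8, a structural subunit of the lid, was measured at 226 and 209.7 CPM in the controls against 398 and 443 CPM after Erastin. Both Erastin libraries were far above both controls. The gene rose 1.93-fold (log2 fold change 0.95 ± 0.074, adjusted p = 8.76e-07), the highest fold change among the 43 tested, and it kept its call in every alternative setting and with each library left out (log2 fold change 0.87 to 1.02). It maps to chr19:38374536-38383824 on the plus strand of GRCh38, and no exon of another gene overlaps it.

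PSMD4, a receptor that binds ubiquitin chains, was at 138 and 129.8 CPM in the controls against 191 and 176 CPM after Erastin. It rose 1.37-fold (log2 fold change 0.45 ± 0.072, adjusted p = 0.00028), with the groups well apart. PSMD12, a lid subunit named after its values were seen, was at 141 and 147 CPM in the controls against 189 and 186 CPM after Erastin (log2 fold change 0.38 ± 0.066, adjusted p = 0.000557). PSMD7, which pairs with the deubiquitinase PSMD14 in the lid, fell, at 59.8 and 58.5 CPM in the controls against 45.8 and 46.6 CPM after Erastin (log2 fold change -0.36 ± 0.079, adjusted p = 0.003). PSMD14 itself differed by 0.0043 (adjusted p = 0.968).

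The other cap subunits did not pass the test. PSMD13, with the next lowest fold change after PSMD7, was at 148 and 148 CPM in the controls against 136 and 137 CPM after Erastin (log2 fold change -0.12 ± 0.065, adjusted p = 0.156). PSMD2, a scaffold for ubiquitin receptors, was at 1325 and 1193 CPM in the controls against 1286 and 1229 CPM after Erastin. Its control libraries spanned its Erastin libraries (log2 fold change -0.0017 ± 0.069, adjusted p = 0.988). PSMD2 was named after its values were seen. Per kilobase of exon, PSMD2 had the highest control level of all proteasome genes (231 CPM per kilobase), followed by PSMA7 (160.2) and PSMB7 (149.7). The log2 fold change was -0.11 for PSMD1, 0.064 for PSMD3, 0.032 for PSMD6 and 0.039 for PSMD11.

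**Figure D4:**
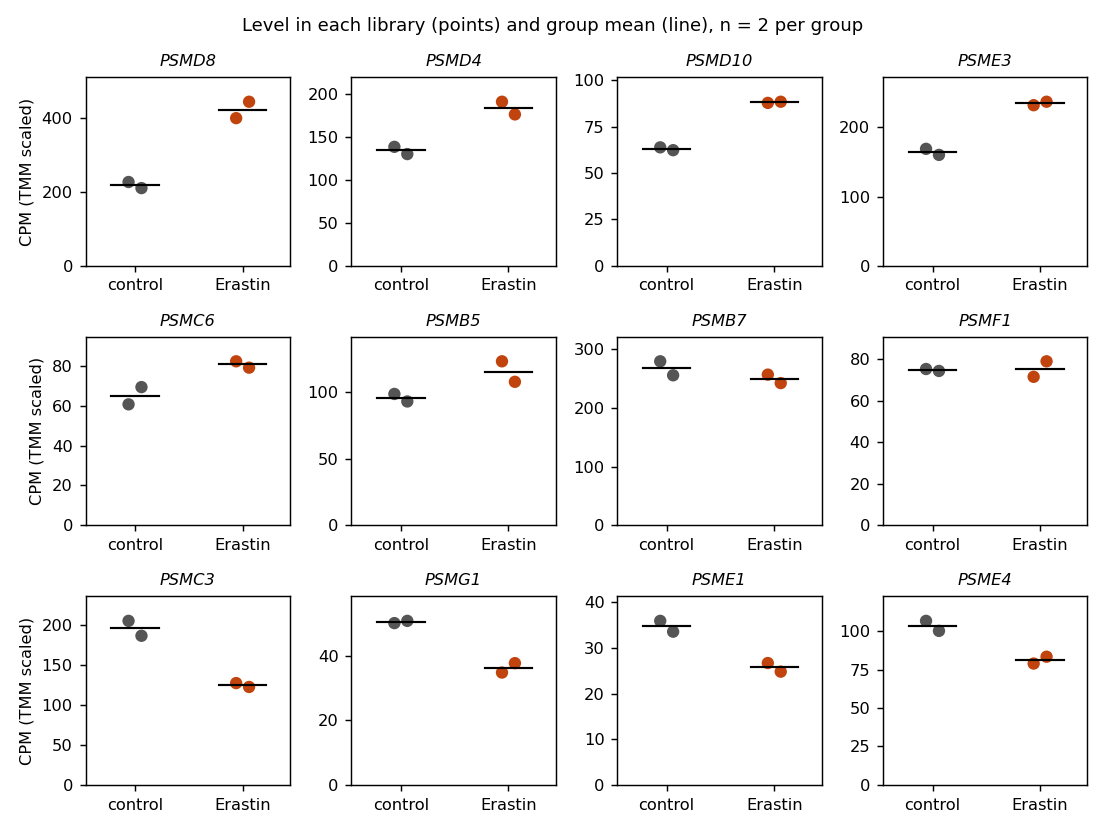
Level of 12 proteasome genes in CPM (TMM scaled, axis from 0) in each of the 4 libraries, with points for libraries and a line for each group mean. The genes were picked after their values were seen. PSMD8 stands at 210 to 226 CPM in the controls and 398 to 443 CPM after Erastin, PSMC3 at 187 to 205 CPM and 123 to 127 CPM, while the groups overlap for PSMB7 and PSMF1.

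Among the 7 assembly chaperones, which build the barrel and the cap and leave before the proteasome is complete, 2 rose and 3 fell (28.6% and 42.9%, beside 23.2% and 23.7% of all tested genes). PSMD10, a cap chaperone also known as gankyrin, was at 63.9 and 62.4 CPM in the controls against 87.9 and 88.5 CPM after Erastin and rose 1.4-fold (log2 fold change 0.48 ± 0.071, adjusted p = 0.000161). PSMD5, another cap chaperone, was at 64.6 and 66.9 CPM in the controls against 76.4 and 75.7 CPM after Erastin (log2 fold change 0.21 ± 0.073, adjusted p = 0.0322). Neither gene's groups overlapped, but the PSMD5 call was lost in DESeq2 (adjusted p = 0.077), without a filter on low counts (0.0574), and without control replicate 1 (0.095), Erastin replicate 1 (0.156) or Erastin replicate 2 (0.123).

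PSMG1, a chaperone of the core, stood at 50.1 and 50.8 CPM in the controls against 34.8 and 37.7 CPM after Erastin (log2 fold change -0.48 ± 0.089, adjusted p = 0.000939). Its partner in a heterodimer, PSMG2, named after its values were seen, stood at 43.7 and 46 CPM in the controls against 34.2 and 36.5 CPM after Erastin (log2 fold change -0.34 ± 0.092, adjusted p = 0.00908) and lost the call without Erastin replicate 1 (adjusted p = 0.0799). PSMG4, also of the core, was at 10.9 and 8.5 CPM in the controls against 5.85 and 6.02 CPM after Erastin, the lowest fold change of all 43 genes (log2 fold change -0.71 ± 0.19, adjusted p = 0.00833), from 175 to 334 counts per library. Its call was lost without control replicate 1 (adjusted p = 0.0536). PSMG3, the partner of PSMG4, differed by -0.083 (adjusted p = 0.579), and the cap chaperone PSMD9 by 0.19 (adjusted p = 0.329). In all 7 chaperones the control and Erastin libraries did not overlap, which held for 73.6% of all tested genes. Among assembly factors with other symbols, the core chaperone POMP rose (0.30) and the cap chaperone PAAF1 did not pass the test (-0.14, adjusted p = 0.426).

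The activators are alternative lids that bind the barrel without ATP. PSME3, the subunit of the nuclear activator, was at 169 and 160.1 CPM in the controls against 232 and 237 CPM after Erastin, and rose 1.42-fold (log2 fold change 0.51 ± 0.066, adjusted p = 5.66e-05). PSME1 and PSME2 form the interferon-inducible activator together. PSME1 stood at 35.9 and 33.5 CPM in the controls against 26.7 and 24.8 CPM after Erastin and fell (log2 fold change -0.43 ± 0.10, adjusted p = 0.00468). PSME2 stood at 28.2 and 32.9 CPM in the controls against 26 and 25.7 CPM after Erastin and did not pass the test (log2 fold change -0.24 ± 0.11, adjusted p = 0.0977), although it did without control replicate 1 (adjusted p = 0.0242).

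PSME4, a large single-chain activator, was at 107 and 100.1 CPM in the controls against 78.9 and 83.4 CPM after Erastin and fell (log2 fold change -0.35 ± 0.073, adjusted p = 0.00193). In the 4 activators the groups did not overlap, as for 73.6% of all tested genes, with PSME3 above and the other 3 below the controls. At the threshold, 1 of these 4 genes rose and 2 fell, where 23.2% of all tested genes rose and 23.7% fell. A group of 4 genes is too small to tell its shares from those of all tested genes. PSMF1, an inhibitor of the barrel in vitro, was at 75.2 and 74.2 CPM in the controls against 71.4 and 78.9 CPM after Erastin. The Erastin libraries lay on either side of the controls (log2 fold change 0.0087 ± 0.077, adjusted p = 0.939).

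Of 34 further genes of the pathway, 32 were tested, 14 rose and 3 fell (43.8% and 9.38%, against 23.2% and 23.7% of all tested genes), with a median log2 fold change of 0.16. All 5 genes around NFE2L1 and NFE2L2 rose. NFE2L1, the factor that raises subunit transcription when the proteasome is short, was at 481 and 427 CPM in the controls against 686 and 694 CPM after Erastin (log2 fold change 0.60 ± 0.071, adjusted p = 2.66e-05). NFE2L2, the related oxidative stress factor, was at 64.8 and 75.5 CPM in the controls against 113 and 121 CPM after Erastin (log2 fold change 0.74 ± 0.085, adjusted p = 2.16e-05). KEAP1, which holds NFE2L2 in check, was at 70.6 and 68.7 CPM in the controls against 161 and 155 CPM after Erastin, the one gene of these lists past the fold threshold (log2 fold change 1.18 ± 0.069, adjusted p = 7.60e-08). DDI2, the protease that releases NFE2L1, rose by 0.76 and NGLY1, which removes its sugar chains, by 0.25. The NGLY1 call was lost without control replicate 1 (adjusted p = 0.102), Erastin replicate 1 (0.118) or Erastin replicate 2 (0.0727). The level of NFE2L1 is that of its transcript, and its processing was not measured.

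Among subunits and assembly factors without a PSM symbol, POMP, which helps the beta ring assemble, was at 68.9 and 64.4 CPM in the controls against 83.4 and 81.3 CPM after Erastin (log2 fold change 0.30 ± 0.074, adjusted p = 0.00524). Its call was lost without Erastin replicate 1 (adjusted p = 0.0513). ADRM1, a ubiquitin receptor of the cap, was at 83.8 and 76.3 CPM in the controls against 87.6 and 84.8 CPM after Erastin and did not pass the test (log2 fold change 0.11 ± 0.076, adjusted p = 0.275). TXNL1 also rose, a call lost without Erastin replicate 2. Thus 2 of these 6 genes rose (33.3%, beside 23.2% of all tested genes) and none fell in edgeR (beside 23.7%). The 2 that rose were the 2 with an unadjusted p under 0.05 in edgeR.

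Among the ubiquitin genes, UBB rose by 0.22 on the log2 scale, a call lost without Erastin replicate 1 (adjusted p = 0.271), and RPS27A, a ubiquitin and ribosomal protein fusion, fell by 0.57. Of 6 ubiquitin and ubiquitin-activating enzyme genes, 2 rose and 1 fell (33.3% and 16.7%, beside 23.2% and 23.7% of all tested genes). Their median log2 fold change was 0.0485. Their summed level was 2208 and 2178 CPM in the controls against 2853 and 2812 CPM after Erastin. The pathway genes given here beyond NFE2L1, NFE2L2, KEAP1, POMP, ADRM1 and TAP1 were named after their values were seen. Of the 8 shuttle factors and VCP unfoldase genes, which carry ubiquitinated proteins to the cap, 3 rose (RAD23B, UBQLN1 and UBQLN2, or 37.5% beside 23.2% of all tested genes) and 5 did not pass. The calls of RAD23B and UBQLN1 were lost without Erastin replicate 2 (adjusted p = 0.309 and 0.202). At the cap itself the deubiquitinase USP14 rose by 0.32 and UCHL5 fell by 0.87.

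Of the interferon regulators and peptide transporter genes, NLRC5, a regulator of antigen presentation genes, fell by 0.78 on the log2 scale. TAP1, which carries proteasome products into the endoplasmic reticulum, had 0 counts in every library, and 100% of its exon words recur on alternate scaffolds, as for PSMB8 and PSMB9 beside it on chromosome 6.

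**Figure D5:**
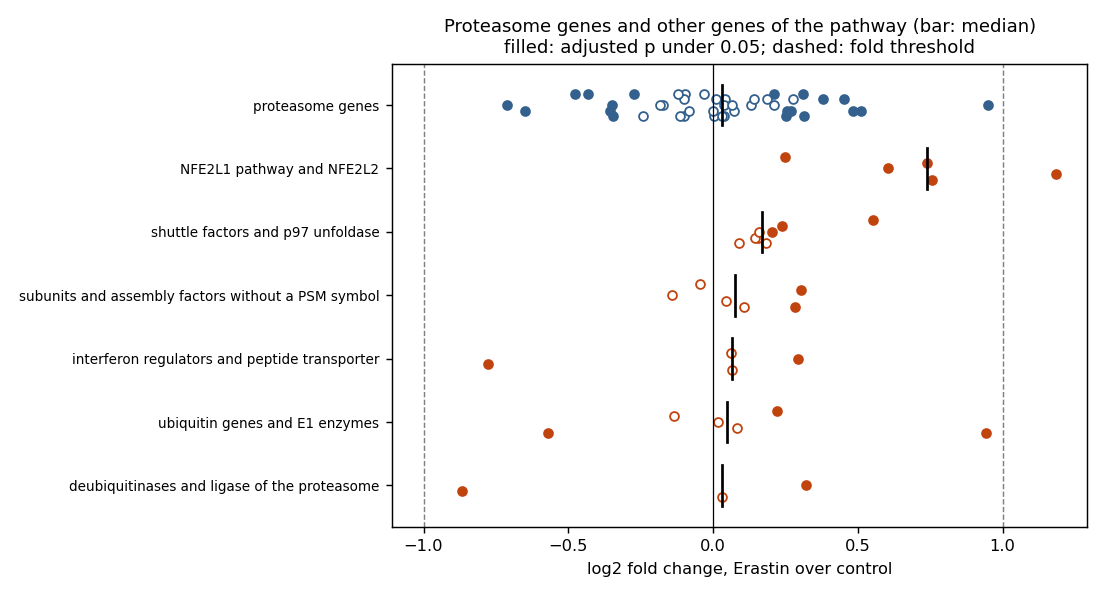
Log2 fold change, Erastin over control, of the 43 tested proteasome genes (top) and 32 tested pathway genes grouped by role, with a bar at each median and filled points for an adjusted p under 0.05. The proteasome genes spread around a median of 0.032, while the 5 genes around NFE2L1 and NFE2L2 lie between 0.25 and 1.18.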

How the data were processed

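Total RNA of U87MG cells was extracted with TRIzol and sequenced, and clean reads were aligned by the authors to hg38 with HISAT2 (2.1.0 in the submitters' processing notes). The deposited table holds raw, unstranded read counts per gene. Its header names featureCounts 2.0.3 and Ensembl release 90, where the notes name featureCounts 2.0.4 and the methods another counter. No normalization had been applied. The first library's column was handled as estimated counts because of a file header line, but the deposited values were whole, so rounding changed none. Reads matching several places or genes had not been counted by the authors, and each read of a pair was counted. The ChIP-seq and HiChIP samples were not analysed here.

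Counts were filtered with filterByExpr (minimum count 10), scaled by TMM and tested with edgeR 4.0.16 in R 4.3.3 (glmQLFTest), 2 control against 2 Erastin libraries, without a block. The biological coefficient of variation was 10.3%. Genes were called at an adjusted p under 0.05, with the fold threshold at a log2 fold change of 1. DESeq2 1.42.0, other scalings, other filters, read pairs, protein-coding genes alone, a replicate block and leaving out each library were alternatives. The script was tested on simulated data. Its first pass criterion, set over genes of all depths, was missed on genes with few counts and was replaced by one on well-counted genes.

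The genes given by library were the catalytic and inducible beta subunits, the activators and inhibitor, untested genes, genes past both thresholds and, in each other group, the 2 with the highest and the 2 with the lowest fold change. PSMD2, PSMD12 and PSMG2 were added after their values were seen. Of the pathway genes, those past both thresholds and NFE2L1, NFE2L2, POMP, ADRM1 and TAP1 were given. The proteasome genes, lists and rules were chosen with earlier results of these data known. Gene types and MANE Select transcripts were those of GENCODE release 44. Exon words of 31 bases were searched in hg38, and promoter sequences were RefSeq's. Some genes of the pathway lists are counted but not reported here by name.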

Additional observations from a re-analysis of the deposited data

How the results depend on the processing

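Fold changes of 64 genes named in the text were recomputed under each alternative, and none of those called reversed. 9 proteasome genes that were not called in any setting changed sign in at least 1 (PSMA2, PSMA6, PSMB2, PSMC4, PSMD2, PSMD3, PSMD6, PSMD14 and PSMF1). PSMC4 ranged furthest, from -0.60 without control replicate 2 to 0.37 without control replicate 1. With all 4 libraries, 504 of these values kept their side of the threshold, 3 lost it and 5 gained it. With 1 library left out the numbers were 227, 23 and 6. Leaving out 1 library each gave 6 to 12 risen and 6 to 9 fallen proteasome genes and 0 to 1 past the fold threshold (PSMD8, without control replicate 1 or Erastin replicate 1). The median log2 fold change of the proteasome genes lay between -0.0063 (without Erastin replicate 1) and 0.040 (without control replicate 2), so its sign rested on Erastin replicate 1. In these fits the lone library of a group is assumed to vary like the other group. DESeq2 called 9 risen and 8 fallen, beside 3359 and 3432 of all genes. Scaling by library totals gave 14 and 8 of the 43 tested, with a median of 0.081. Over the 16751 tested genes the same scaling called 4336 and 3612, with a median of 0.047. PSMB6 passed the threshold under library totals (adjusted p = 0.0227), without a filter on low counts (0.0362) and with the replicate block (0.0434). PSMC5 (0.0351) and PSMB1 (0.0336) did so under library totals. The labels do not say that same-numbered libraries were prepared together. With the replicate block 12 proteasome genes rose and 8 fell, beside 4030 and 4077 of the 16751 tested genes. The deviations of same-numbered libraries from their group means correlated at 0.020 over 16751 genes. Without 7 genes under exons of other genes, 10 rose and 6 fell (27.8% and 16.7%, beside 23.2% and 23.7% of all tested genes). This alternative was chosen after seeing the data. 2 libraries per group limit what small differences can show, and genes with few counts (PSMA2, PSMA6, PSMB10, PSMC4) have standard errors above 0.2.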
